A study of Mus musculus with 9 samples.

Results

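In mouse squamous cell carcinoma (SCC) cells, 49 genes had at least 4-fold less mRNA in FAK-WT-expressing cells than in both FAK-/- cells and FAK-kd-expressing cells, out of 19044 gene identifiers measured. Most of them encode proteins that are secreted, sit at the cell surface or build the matrix and the cytoskeleton. Examples are the Wnt ligand *Wnt7b*, the smooth muscle actin *Acta2* and the integrin subunit *Itgb3*. These roles were assigned after the genes were seen, and their share among the other identifiers was not counted. The gene with the largest difference was *Ctsz*, which encodes a lysosomal protease. For this choice the counts of each library were scaled to library size as CPM, the count divided by the library's total and multiplied by 1000000. A gene was kept when its mean was at least 5 CPM in the FAK-/- libraries and in the FAK-kd libraries, which 9408 identifiers reached. The FAK-/- mean and the FAK-kd mean then had to be at least 4 times the mean of FAK-WT replicates 2 and 3, with 0.1 CPM added to all these means, and both of those FAK-WT libraries had to lie below all 6 libraries of the other lines. The FAK-/- mean was at least 4-fold higher for 68 identifiers, the FAK-kd mean for 59, and both for 49. The order of the libraries removed none of the 49, and no 2 of them had identical counts. The distance of these genes from FAK-WT cells was therefore set by the choice and is given as a description, without a test. The choice did not ask how FAK-kd and FAK-/- cells compared with each other, and that comparison was tested.

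Focal adhesion kinase (FAK) is a tyrosine kinase that is recruited to integrin adhesions, where it binds Src and relays signals from the matrix to the actin cytoskeleton and to gene expression. Besides its catalytic activity it acts as a scaffold for other proteins, and part of it is found in the nucleus. A kinase-deficient form can keep the scaffold while lacking the activity, so cells that lack FAK and cells with a kinase-deficient FAK separate both functions. In skin carcinoma cells FAK is known for its roles in adhesion, invasion and the secretion of immune modulators.

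The tumour cells came from FVB mice with a K14CreER transgene, in which the keratin 14 promoter drives an inducible Cre recombinase, and with FAK flox/flox alleles. The tumours had been raised in the skin with dimethylbenz[a]anthracene followed by 12-O-tetradecanoylphorbol 13-acetate, and FAK was deleted in the cultured cells with 4-hydroxytamoxifen. A FAK-/- clone then received FAK-WT or kinase-deficient FAK (FAK-kd) from a retrovirus with hygromycin selection, so all 3 lines carry the deletion and the FAK-/- line had no FAK form put back. No infection or selection is described for the FAK-/- line, so its differences from the other lines cannot be told apart from those steps. RNA was sequenced from 3 biological replicates of each line. Each FAK form was represented by 1 line, and differences between lines and effects of the FAK form cannot be told apart.

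The libraries held 25304994 to 37264636 counts, except FAK-WT replicate 1, which held 779755 counts, 2.31% of the median of the other 8. With 3 counts as the least told from none, that library shows a gene only from 3.85 CPM, and these floors cover counting error only. *Ptk2*, which encodes FAK, was at 217 to 218 CPM in the FAK-WT libraries, 151 to 175 CPM in the FAK-kd libraries and 19.6 to 23.5 CPM in the FAK-/- libraries. The FAK-kd line thus had less *Ptk2* mRNA than the FAK-WT line, and the part of this in the results below was not tested. Of 9 keratinocyte markers 7 were measured, and their sum was 0.553 to 2.02 CPM in every library, with *Krt5* and *Cdh1* at 0 in most libraries. The lines, labelled squamous cell carcinoma, therefore carried little mRNA of these keratinocyte markers. Of 7 fibroblast markers 6 were measured, and 3 reached the level used for the choice of genes. Their sums were 9043 to 9221 CPM in FAK-WT, 8367 to 8969 CPM in FAK-/- and 9090 to 10024 CPM in FAK-kd libraries. *Vim*, a mesenchymal intermediate filament gene on that list, made up most of these sums, at 6874 to 8088 CPM. *Pdgfra*, also on it, was called lower in FAK-WT cells against both lines. The part of fibroblast mRNA in the results was not tested.

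Over the 49 genes, the smaller of the ratios to FAK-WT cells ranged from 4.09 to 81.6 with a median of 7.81, while over the 9408 identifiers at this level its median was 0.953. The 0.1 CPM added to each mean keeps the ratios low for genes with very few FAK-WT counts, so the ratios of *Ctsz* (81.6) and *Wnt7b* (50.1) lie below those of their pooled counts given further on. The median ratio was 8.96 for FAK-/- over FAK-WT cells and 8.67 for FAK-kd over FAK-WT cells. All 49 also passed edgeR's quasi-likelihood test as lower in FAK-WT cells, at a Benjamini-Hochberg adjusted p of 0.05 or below and at least 2-fold, against 3.06% of all identifiers (2.39% of those at this level) for FAK-/- cells and 2.89% (2.42%) for FAK-kd cells. Nothing is read from that count, since the choice used these contrasts. FAK-WT replicate 1 had no part in the choice and came from the same line. It lay below all 6 FAK-/- and FAK-kd libraries for 49 of 49 genes, against 34.1% of the identifiers at this level and 29.7% of all identifiers. The choice had required those 6 libraries to be high in these genes, and the compared identifiers were not chosen that way. This order is therefore given as a description and not as a test of the choice. In FAK-WT replicate 1, 20 of the genes had 0 counts, 16 had 1 to 3 counts and 13 had more. The 49 genes together had 250 counts there, and 245 would be expected at the levels of replicates 2 and 3. The 36 genes with at most 3 counts, a set picked by its low counts there, had 25, against 33.4. The total thus rests mainly on the 13 others. For 35 of the 36 genes with at most 3 counts, the lowest FAK-/- or FAK-kd library lay above the 3.85 CPM that the shallow library could show.

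**Figure D1:**
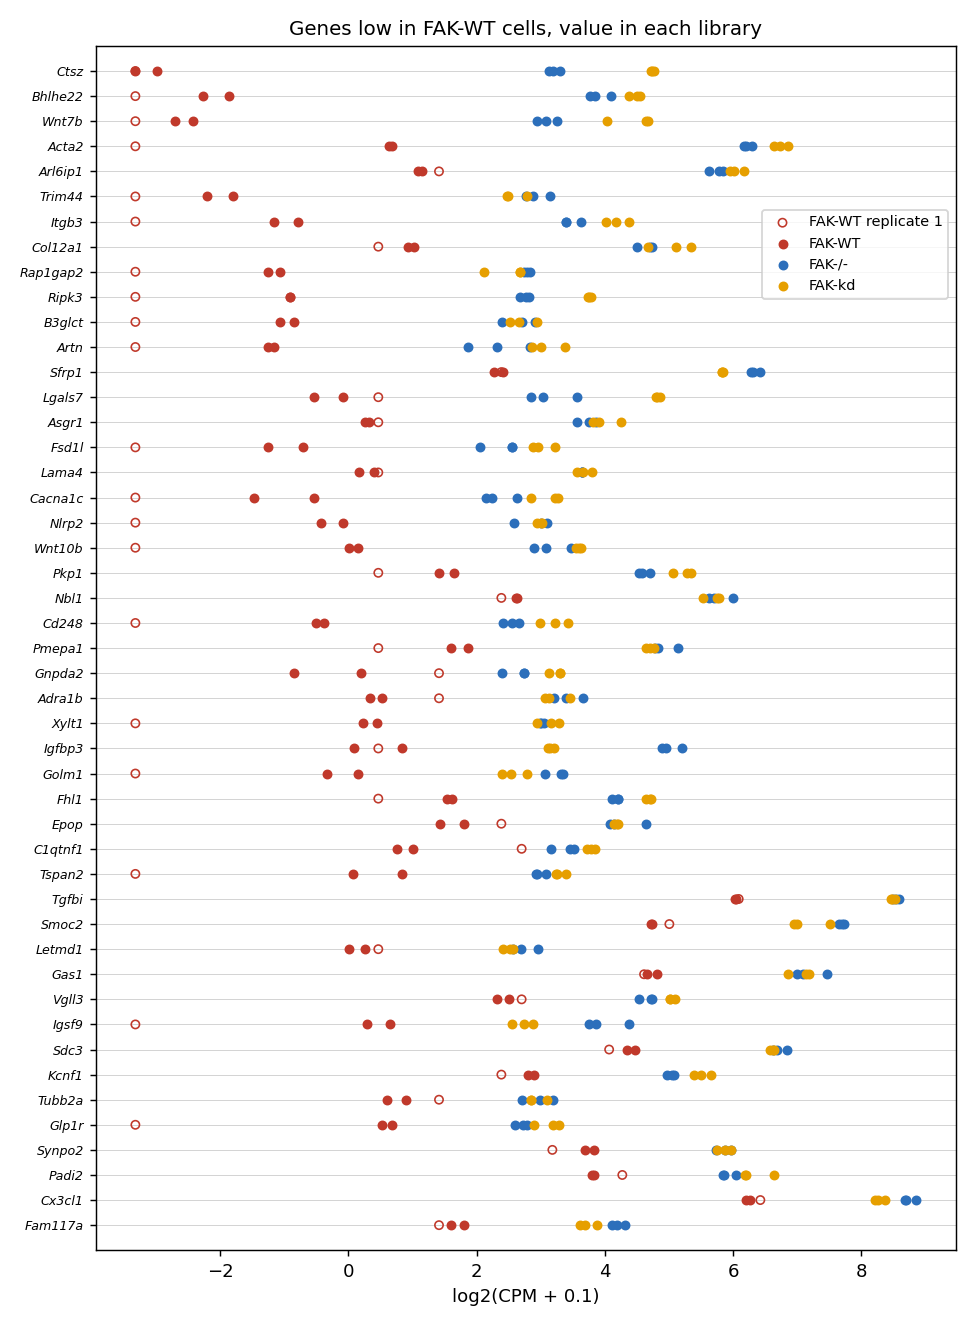
Expression of 47 of the 49 genes in each of the 9 libraries as log2(CPM + 0.1), with genes ordered by the smaller of their ratios to FAK-WT cells. Filled red points are FAK-WT replicates 2 and 3, open red points the shallow FAK-WT replicate 1 (points at the left edge are at 0 counts), blue points FAK-/- and orange points FAK-kd libraries; in every gene drawn all red points lie to the left of all blue and orange ones.

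**Figure D2:**
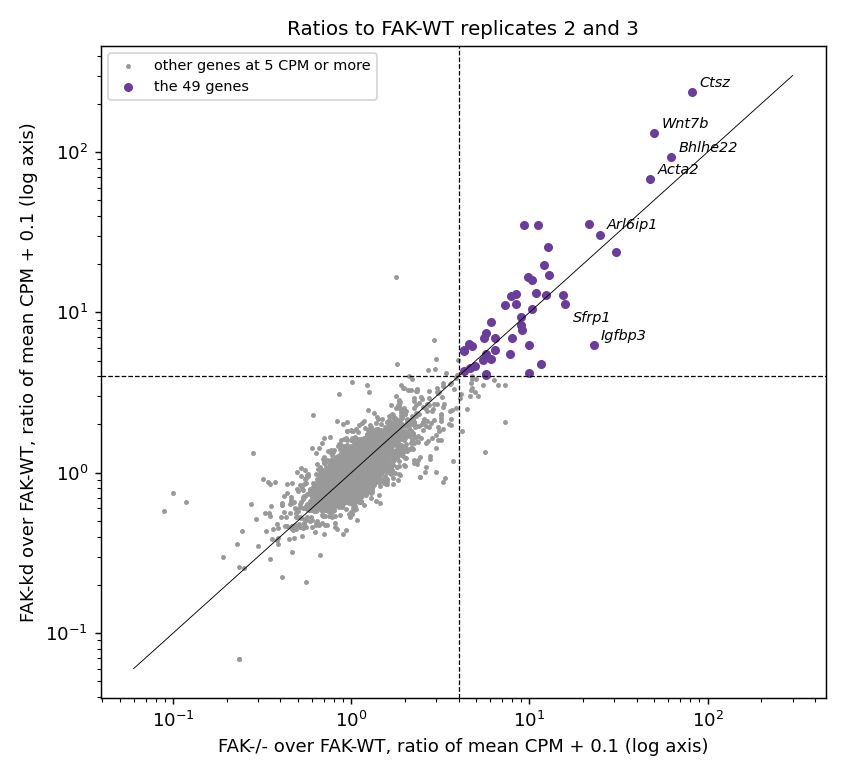
Ratio to FAK-WT replicates 2 and 3 of the FAK-/- mean (x axis) and of the FAK-kd mean (y axis), both on log axes with 0.1 CPM added, for the 9408 identifiers with at least 5 CPM in both means. The dashed lines mark 4-fold and the solid line equal ratios; the 49 genes, in purple, lie past both dashed lines by the way they were chosen, with *Ctsz* farthest out and *Igfbp3* farthest below the solid line.

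The genes nearest to the 4-fold limit were *Fam117a* with a smaller ratio of 4.09 and *Cx3cl1* with 4.13. Just outside lay *Nt5dc2* with 3.99, the receptor gene *Pdgfrb* with 3.98 and *Tgif2* with 3.91. No gap separates the 49 genes from those just outside.

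In FAK-kd against FAK-/- cells, 5 of the 49 genes were higher and 3 were lower by at least 2-fold and with a Benjamini-Hochberg adjusted p, over all identifiers, of at most 0.05 in the quasi-likelihood test of edgeR. The same calls were made for 0.914% and 1.09% of all identifiers, and for 0.34% and 0.266% of those at this level. The higher genes included *Lgals7*, *Ctsz*, *Wnt7b* and *Ripk3*, and the lower genes included *Igfbp3* and *Igsf9*. With glmTreat, which tests against the 2-fold minimum itself, *Wnt7b*, *Ripk3* and *Igsf9* were among the genes that no longer passed. By adjusted p alone, 17 were higher and 8 lower, 51.0% of the genes together, against 7.84% of all identifiers (3.97% higher and 3.88% lower) and 11.8% of those at this level (6.13% higher and 5.65% lower). The FAK-kd mean was above the FAK-/- mean for 30 genes and below it for 19, against 48.5% and 51.5% of the identifiers at this level. All 3 FAK-kd libraries lay above all 3 FAK-/- libraries for 23 genes, against 16.5% of the identifiers at this level. They lay below for 11 genes, against 19.1%, and the libraries overlapped for 15, against 64.4%. The median log2 fold change of FAK-kd over FAK-/- cells was 0.30 over the 49 genes and 0.01 over all identifiers at this level. Its median size without the sign was 0.45 against 0.13. For 33 of the 49 genes the FAK-kd and FAK-/- means were within 1.5-fold of each other, against 96.5% of the identifiers at this level. For 24 genes the adjusted p did not pass, with log2 fold changes from -0.34 (*Trim44*) to 0.72 (*Artn*).

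**Figure D3:**
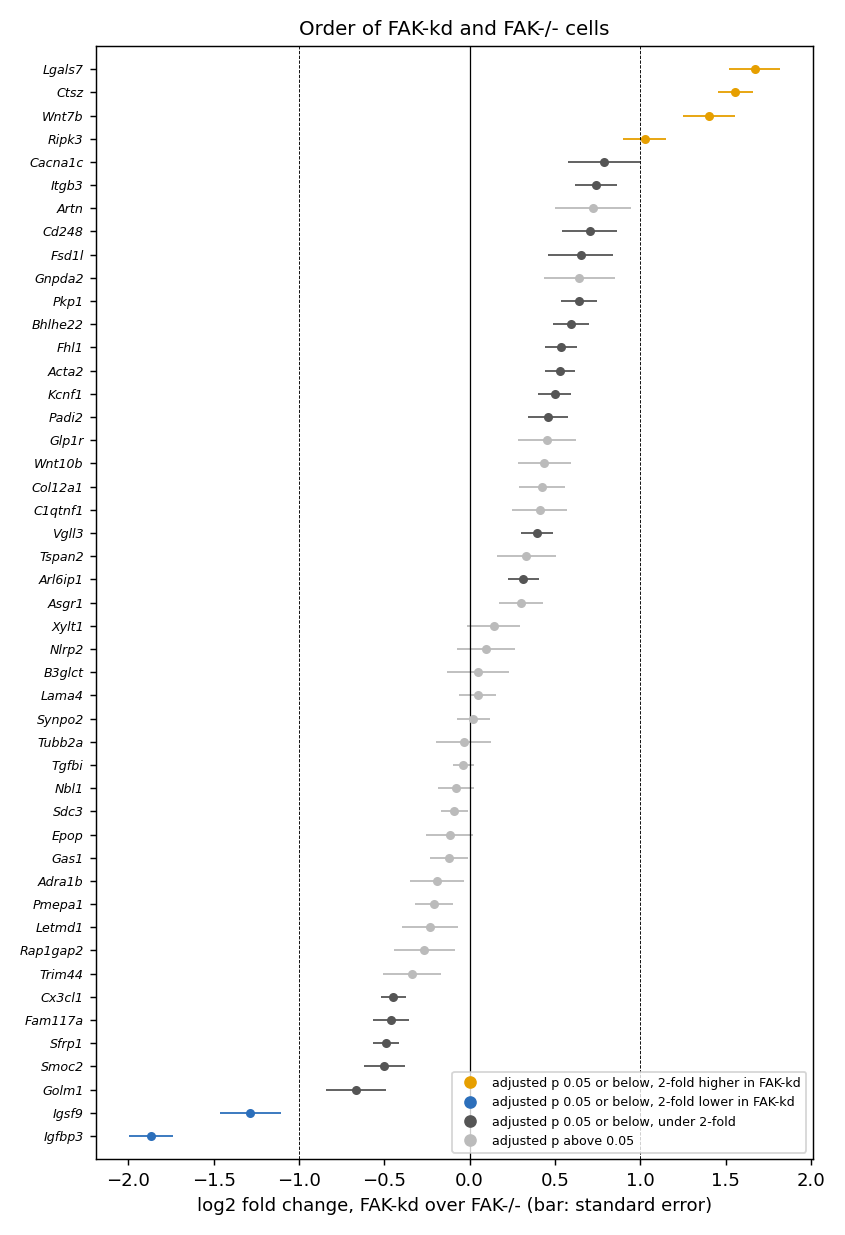
log2 fold change of FAK-kd over FAK-/- cells for 47 of the 49 genes, from edgeR, with its standard error as a bar. Orange and blue points are 4 genes higher and 2 lower at an adjusted p of 0.05 or below and at least 2-fold (dashed lines), dark grey points passed the adjusted p alone, and light grey points did not; the values run from -1.87 (*Igfbp3*) to 1.67 (*Lgals7*).

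**Figure D4:**
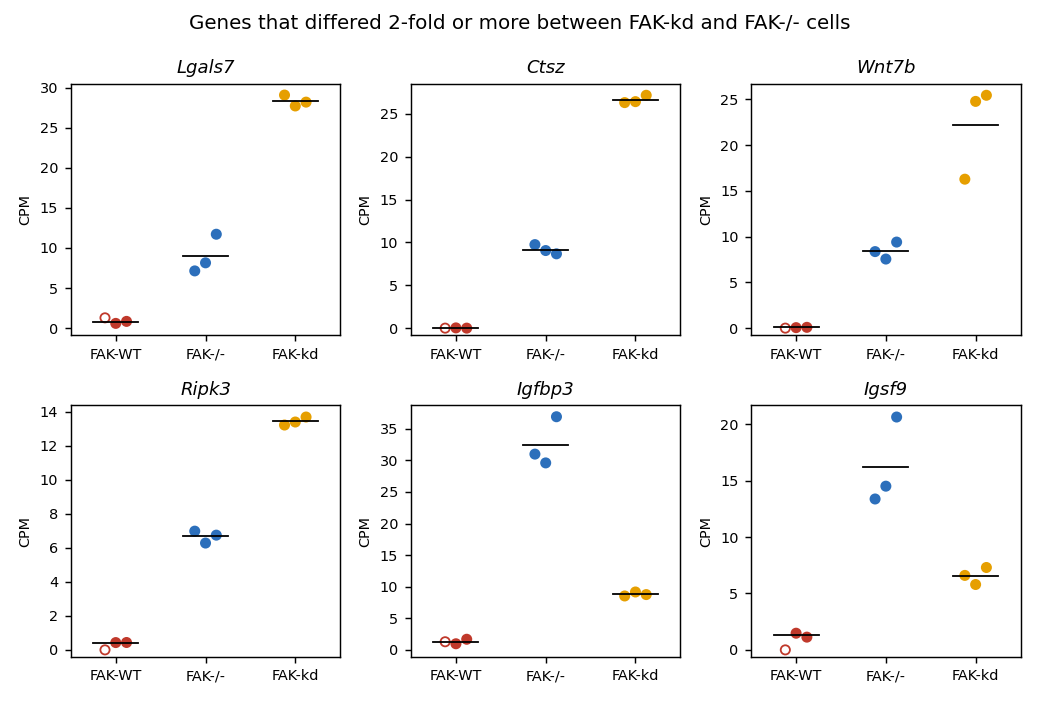
CPM in each library of 6 genes that differed at least 2-fold between FAK-kd and FAK-/- cells, with one panel per gene and its own y axis from 0. The open red point is FAK-WT replicate 1, filled points are the other libraries, and each black line is the group mean (for FAK-WT, of replicates 2 and 3); in the first 4 panels FAK-kd lies highest, and in *Igfbp3* and *Igsf9* it lies between FAK-WT and FAK-/-.

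The 9 secreted ligands and antagonists included *Wnt7b*, *Wnt10b*, *Sfrp1*, *Igfbp3*, *Cx3cl1*, *Nbl1*, *Artn* and *C1qtnf1*. Their smaller ratios, with 0.1 CPM added, ran from 4.13 to 50.1, and FAK-kd against FAK-/- cells gave 2 higher and 3 lower genes by adjusted p. *Wnt7b* encodes a secreted Wnt ligand. *Wnt7b* had 0, 0.0537 and 0.0868 CPM in FAK-WT replicates 1 to 3, 8.36, 7.55 and 9.4 CPM in FAK-/- and 16.3, 24.8 and 25.4 CPM in FAK-kd replicates. The FAK-WT libraries had almost none and the FAK-kd libraries all lay above the FAK-/- ones (FAK-kd over FAK-/- log2 fold change 1.41, standard error 0.15, edgeR adjusted p = 2.97e-05). FAK-WT replicates 2 and 3 held 5 counts of *Wnt7b* together, and the ratio of pooled CPM was 122 for FAK-/- cells (exact 95% interval 52.1 to 377) and 318 for FAK-kd cells (136 to 981). These intervals cover counting error only, not the spread between replicates. They make no allowance for the gene having been chosen by this same contrast, and are given as a description. *Wnt10b* encodes another Wnt ligand. Its levels were 8.39, 7.31 and 11 CPM in the FAK-/- libraries, 11.6, 12.2 and 12 CPM in the FAK-kd libraries and 0, 0.912 and 1.01 CPM in the FAK-WT libraries. The FAK-kd libraries lay above the FAK-/- ones but the difference did not pass (FAK-kd over FAK-/- log2 fold change 0.44, standard error 0.16, edgeR adjusted p = 0.111).

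*Sfrp1*, a secreted protein that binds Wnts and antagonizes them, had the opposite order of FAK-kd and FAK-/- cells. FAK-kd replicates 1 to 3 had 56.8, 56.9 and 57.1 CPM of *Sfrp1*, FAK-/- replicates 78, 79.5 and 85.1 CPM and FAK-WT replicates 5.13, 4.72 and 5.24 CPM. The 3 lines did not overlap, and FAK-/- was highest (FAK-kd over FAK-/- log2 fold change -0.49, standard error 0.08, edgeR adjusted p = 0.000822). *Igfbp3*, a carrier protein of insulin-like growth factors, had the largest fall from FAK-/- to FAK-kd cells. In the FAK-/- libraries *Igfbp3* was at 31, 29.6 and 36.9 CPM, in the FAK-kd libraries at 8.53, 9.16 and 8.75 CPM and in the FAK-WT libraries at 1.28, 0.966 and 1.68 CPM. The FAK-kd level was between those of the other lines, with no overlap (FAK-kd over FAK-/- log2 fold change -1.87, standard error 0.13, edgeR adjusted p = 3.27e-07). *Cx3cl1* encodes fractalkine, a chemokine made as a membrane protein and released by shedding. *Cx3cl1* had 85.9, 73.9 and 77.1 CPM in FAK-WT replicates 1 to 3, 416, 410 and 465 CPM in FAK-/- and 330, 298 and 307 CPM in FAK-kd replicates. Here too FAK-/- was highest and FAK-kd intermediate, by less than 2-fold (FAK-kd over FAK-/- log2 fold change -0.45, standard error 0.07, edgeR adjusted p = 0.00129). *Nbl1*, an antagonist of bone morphogenetic proteins, was at 49.5 to 63.9 CPM in FAK-/- and 46.2 to 54.7 CPM in FAK-kd libraries, which overlapped, and at 5.13 to 6.06 CPM in FAK-WT libraries. *Artn*, a ligand of the GDNF family, was at 3.56 to 7.04 CPM in FAK-/- and 7.16 to 10.3 CPM in FAK-kd libraries, and at most 0.349 CPM in FAK-WT libraries. Without FAK-/- replicate 3 its log2 fold change of FAK-kd over FAK-/- cells was 1.01 and passed the test (edgeR adjusted p = 0.00098). *C1qtnf1*, a secreted C1q and TNF related protein, had a smaller ratio of 5.68.

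The 7 other proteins of adhesion and the cell surface were *Itgb3*, *Lgals7*, *Asgr1*, *Pkp1*, *Cd248*, *Tspan2* and *Igsf9*. By adjusted p, 4 of them were higher and 1 was lower in FAK-kd than in FAK-/- cells. *Itgb3* encodes the beta 3 integrin subunit, which pairs with alpha v as a receptor for vitronectin and fibronectin. Its levels were 10.4, 12.2 and 10.5 CPM in the FAK-/- libraries, 16, 17.9 and 20.6 CPM in the FAK-kd libraries and 0, 0.483 and 0.347 CPM in the FAK-WT libraries. FAK-WT cells had little *Itgb3* mRNA, and FAK-kd lay above FAK-/- without overlap, by less than 2-fold (FAK-kd over FAK-/- log2 fold change 0.74, standard error 0.13, edgeR adjusted p = 0.00153). *Lgals7* encodes galectin-7, a lectin known from stratified epithelia. FAK-kd replicates 1 to 3 had 29.1, 27.7 and 28.2 CPM of *Lgals7*, FAK-/- replicates 7.13, 8.14 and 11.7 CPM and FAK-WT replicates 1.28, 0.59 and 0.84 CPM. The FAK-kd libraries were close together and above the FAK-/- libraries (FAK-kd over FAK-/- log2 fold change 1.67, standard error 0.15, edgeR adjusted p = 4.43e-06). The keratinocyte markers summed to 1.25 to 2.02 CPM in FAK-kd, 0.553 to 1.08 CPM in FAK-/- and 1.01 to 1.28 CPM in FAK-WT libraries, and their part in the *Lgals7* result was not tested. In bulk RNA, fewer cells of a type and less RNA per cell cannot be told apart. *Igsf9*, an adhesion protein of the immunoglobulin superfamily, had the opposite order. In the FAK-/- libraries *Igsf9* was at 13.4, 14.5 and 20.6 CPM, in the FAK-kd libraries at 6.6, 5.79 and 7.3 CPM and in the FAK-WT libraries at 0, 1.48 and 1.13 CPM. FAK-kd was intermediate and did not overlap with either line (FAK-kd over FAK-/- log2 fold change -1.28, standard error 0.18, edgeR adjusted p = 0.000286). *Pkp1*, a desmosomal plaque protein, was at 23.2 to 26.1 CPM in FAK-/-, 33.5 to 40.7 CPM in FAK-kd and 1.28 to 3.04 CPM in FAK-WT libraries. The smaller ratios of the hepatic lectin subunit *Asgr1*, the stromal marker *Cd248* (endosialin) and the tetraspanin *Tspan2* were 10.8, 7.88 and 5.55.

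The 5 receptors and ion channels were the adrenergic receptor *Adra1b*, the GLP-1 receptor *Glp1r*, the hedgehog co-receptor *Gas1*, the calcium channel subunit *Cacna1c* and the potassium channel subunit *Kcnf1*. Their smaller ratios ran from 4.29 to 9.77. *Cacna1c* and *Kcnf1* were higher in FAK-kd than in FAK-/- cells by adjusted p, both by less than 2-fold. *Gas1* was at 128 to 177 CPM in FAK-/- and 116 to 146 CPM in FAK-kd libraries, which overlapped, and at 24.4 to 28.0 CPM in FAK-WT libraries.

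The 7 intracellular signaling proteins included *Ripk3*, *Trim44*, *Rap1gap2*, *Pmepa1*, *Nlrp2* and *Padi2*. *Ripk3* encodes the kinase that starts necroptosis. *Ripk3* had 0, 0.429 and 0.434 CPM in FAK-WT replicates 1 to 3, 6.98, 6.28 and 6.75 CPM in FAK-/- and 13.2, 13.4 and 13.7 CPM in FAK-kd replicates. The replicates of each line were close together, and FAK-kd was about 2-fold above FAK-/- (FAK-kd over FAK-/- log2 fold change 1.03, standard error 0.13, edgeR adjusted p = 8.32e-05). Without FAK-/- replicate 2 the log2 fold change was 0.98, and *Ripk3* was then no longer past the 2-fold minimum. Of 8 leukocyte markers 4 were measured, with sums of 0 to 2.23 CPM in FAK-WT, 2.96 to 3.36 CPM in FAK-/- and 1.52 to 2.62 CPM in FAK-kd libraries. *Cd68* made up most of these sums, *Ptprc* was at most 0.629 CPM and *Itgam* at most 0.158 CPM, and the part of leukocyte mRNA in the results was not tested. Of 7 erythroid markers 5 were measured, and their sums were 0 to 1.42 CPM in FAK-WT, 4.27 to 7.16 CPM in FAK-/- and 3.43 to 4.68 CPM in FAK-kd libraries. The alpha globin gene *Hba-a1* was the only one of them called lower in FAK-WT cells against both lines, *Hbb-bs* was at or under 3 counts in each library, and the part of erythroid mRNA in the results was not tested. Of 5 endothelial markers 4 were measured, with sums of 1.28 to 2.07 CPM in FAK-WT, 0.360 to 0.514 CPM in FAK-/- and 0.235 to 0.349 CPM in FAK-kd libraries, and *Cdh5* was called higher in FAK-WT cells against both.

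*Trim44*, a protein of the tripartite motif family, had FAK-/- levels of 6.75 to 8.77 CPM and FAK-kd levels of 5.44 to 6.81 CPM, which overlapped, and at most 0.188 CPM in FAK-WT libraries. *Rap1gap2*, which turns off the adhesion GTPase Rap1, was at 6.59 to 7.0 CPM in FAK-/-, 4.25 to 6.31 CPM in FAK-kd and at most 0.376 CPM in FAK-WT libraries. *Pmepa1* encodes a membrane protein that dampens TGF-beta signaling. It was at 27.5 to 35.1 CPM in FAK-/- and 24.8 to 27.1 CPM in FAK-kd libraries, against 1.28 to 3.54 CPM in FAK-WT libraries. The NOD-like receptor family gene *Nlrp2* and the peptidylarginine deiminase gene *Padi2* had smaller ratios of 8.94 and 4.28.

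The 4 cytoskeletal genes were *Acta2*, *Synpo2*, *Fhl1* and *Tubb2a*. *Acta2* encodes smooth muscle alpha-actin, the actin of contractile and myofibroblast stress fibres. Its levels were 73.9, 72.3 and 78.6 CPM in the FAK-/- libraries, 115, 106 and 99.6 CPM in the FAK-kd libraries and 0, 1.5 and 1.45 CPM in the FAK-WT libraries. FAK-WT replicate 1 had 0 counts of *Acta2*, the other FAK-WT libraries were near 1.5 CPM, and the FAK-kd libraries lay above the FAK-/- ones by less than 2-fold (FAK-kd over FAK-/- log2 fold change 0.53, standard error 0.09, edgeR adjusted p = 0.00145). The other 7 smooth muscle and pericyte markers summed to 84.6 to 109 CPM in FAK-WT, 117 to 161 CPM in FAK-/- and 135 to 201 CPM in FAK-kd libraries. *Cspg4* and *Pdgfrb* made up nearly all of these sums, while *Myh11*, *Cnn1* and *Rgs5*, which mark smooth muscle cells and pericytes, stayed at or under 3 counts in each library. Of these 7 markers, *Pdgfrb* was called lower in FAK-WT cells against both lines, and *Des* was called higher. The part of smooth muscle cells and pericytes in the *Acta2* result was not tested. *Synpo2*, an actin-binding protein of Z-discs and stress fibres, was at 53.0 to 62.4 CPM in FAK-/- and 53.5 to 62.8 CPM in FAK-kd libraries, and at 8.98 to 14.1 CPM in FAK-WT libraries. Its FAK-kd and FAK-/- values overlapped throughout. *Fhl1*, a LIM-domain protein of muscle and stress fibres, was at 17.2 to 18.4 CPM in FAK-/-, 24.9 to 26.3 CPM in FAK-kd and 1.28 to 2.95 CPM in FAK-WT libraries (FAK-kd over FAK-/- log2 fold change 0.54, standard error 0.09, edgeR adjusted p = 0.00169). *Tubb2a*, a beta-tubulin gene, shared 56.4% of its 31-base words with other genes, mainly *Tubb2b*, so its counts are uncertain. *Tubb2b* had 14.6 and 14.9 CPM in FAK-WT replicates 2 and 3, against 9.92 to 12.6 CPM in FAK-/- and 6.36 to 8.87 CPM in FAK-kd libraries.

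The 6 matrix genes were *Tgfbi*, *Smoc2*, *Col12a1*, *Lama4*, *Sdc3* and *Xylt1*. Between FAK-kd and FAK-/- cells *Smoc2* alone passed the adjusted p, by less than 2-fold. *Tgfbi* encodes a TGF-beta-induced adhesive matrix protein. FAK-kd replicates 1 to 3 had 358, 354 and 369 CPM of *Tgfbi*, FAK-/- replicates 373, 362 and 386 CPM and FAK-WT replicates 68, 65.7 and 65.4 CPM. The FAK-kd and FAK-/- libraries overlapped, and the FAK-WT libraries lay far below them (FAK-kd over FAK-/- log2 fold change -0.04, standard error 0.06, edgeR adjusted p = 0.789). *Smoc2* encodes a matricellular protein of the SPARC family. In the FAK-/- libraries *Smoc2* was at 207, 202 and 213 CPM, in the FAK-kd libraries at 183, 123 and 128 CPM and in the FAK-WT libraries at 32.1, 26.3 and 26.6 CPM. FAK-kd replicate 1 was close to the FAK-/- libraries and the other FAK-kd libraries were lower (FAK-kd over FAK-/- log2 fold change -0.50, standard error 0.12, edgeR adjusted p = 0.0163). *Col12a1* encodes a collagen that coats fibrils of collagen I. *Col12a1* had 1.28, 1.8 and 1.94 CPM in FAK-WT replicates 1 to 3, 22.6, 26.1 and 26.7 CPM in FAK-/- and 25.4, 34.3 and 40.4 CPM in FAK-kd replicates. One FAK-kd library lay within the FAK-/- range (FAK-kd over FAK-/- log2 fold change 0.42, standard error 0.13, edgeR adjusted p = 0.0675). *Lama4*, the alpha 4 laminin chain of vessel and muscle basement membranes, was at 12.4 CPM in the FAK-/- libraries, 11.8 to 13.8 CPM in FAK-kd and 1.02 to 1.28 CPM in FAK-WT libraries. *Sdc3*, a heparan sulfate proteoglycan, and *Xylt1*, which starts glycosaminoglycan chains, had smaller ratios of 4.62 and 6.38.

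The 6 genes of the lysosome, the secretory pathway, metabolism and mitochondria were *Ctsz*, *Arl6ip1*, *Golm1*, *B3glct*, *Gnpda2* and *Letmd1*. *Ctsz* encodes cathepsin Z, a lysosomal carboxypeptidase, and had the largest ratios of all. Its levels were 9.74, 9.05 and 8.67 CPM in the FAK-/- libraries, 26.3, 26.4 and 27.2 CPM in the FAK-kd libraries and 0, 0.0268 and 0 CPM in the FAK-WT libraries. FAK-WT replicates 2 and 3 held 1 count together, the FAK-/- libraries were near 9 CPM, and the FAK-kd libraries were almost 3 times as high (FAK-kd over FAK-/- log2 fold change 1.56, standard error 0.10, edgeR adjusted p = 1.71e-07). The ratio of pooled CPM to FAK-WT replicates 2 and 3 was 659 for FAK-/- cells (exact 95% interval 118 to 26049) and 1912 for FAK-kd cells (343 to 75556). Again these intervals cover counting error only and make no allowance for the choice of the gene. That single count leaves them wide. *Arl6ip1* encodes a protein that shapes the endoplasmic reticulum. FAK-kd replicates 1 to 3 had 71.8, 61.9 and 64.4 CPM of *Arl6ip1*, FAK-/- replicates 57.1, 54.8 and 49.4 CPM and FAK-WT replicates 2.56, 2.01 and 2.11 CPM. The lines did not overlap, and FAK-kd was higher than FAK-/- by a small step (FAK-kd over FAK-/- log2 fold change 0.31, standard error 0.09, edgeR adjusted p = 0.0483). The Golgi membrane protein gene *Golm1*, the glucosyltransferase gene *B3glct*, the glucosamine-6-phosphate deaminase gene *Gnpda2* and the mitochondrial membrane protein gene *Letmd1* had smaller ratios of 6.26, 12.5, 7.29 and 5.12.

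The 3 genes of transcription and chromatin were *Bhlhe22*, *Vgll3* and *Epop*. *Bhlhe22* encodes a basic helix-loop-helix repressor known from neurons. In the FAK-/- libraries *Bhlhe22* was at 13.5, 14.2 and 17 CPM, in the FAK-kd libraries at 20.8, 23.3 and 22.7 CPM and in the FAK-WT libraries at 0, 0.107 and 0.174 CPM. FAK-WT libraries had almost no *Bhlhe22* mRNA, and FAK-kd lay above FAK-/- without overlap (FAK-kd over FAK-/- log2 fold change 0.59, standard error 0.11, edgeR adjusted p = 0.0025). *Vgll3*, a cofactor of TEAD factors, was at 23.2 to 26.5 CPM in FAK-/-, 32.2 to 34.3 CPM in FAK-kd and 4.88 to 6.41 CPM in FAK-WT libraries. *Epop*, which links Polycomb and Elongin proteins, was at 16.9 to 24.9 CPM in FAK-/- and 17.5 to 18.4 CPM in FAK-kd libraries, which overlapped, and at 2.61 to 5.13 CPM in FAK-WT libraries. The 2 genes not grouped by role, *Fam117a* and *Fsd1l*, had smaller ratios of 4.09 and 10.3.

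Beyond the 49 genes, other members of their pathways were read from lists of known genes. A list gene was counted as lower in FAK-WT cells when it passed the edgeR test against both other lines at least 2-fold, as 1.96% of all identifiers did, and 1.41% were higher in both. Of 49 measured Wnt ligands, receptors and antagonists, 10 were lower in FAK-WT cells and 0 higher. In this list 17 genes had at most 3 counts in each library, and 18 reached 5 CPM in both the FAK-/- and the FAK-kd mean. Genes with so few counts could hardly be called either way, but they stand in the count of measured genes and in the list median. At an unadjusted p under 0.05 in both contrasts 1 gene, *Ror1*, was higher, and DESeq2 called 0 higher at the same threshold. *Wnt7b*, *Wnt10b* and *Sfrp1* are among the 10 by choice, and the other 7 were the Frizzled receptors *Fzd1*, *Fzd8* and *Fzd9*, the co-receptors *Lrp5*, *Ror2* and *Ptk7* and the Wnt deacylase *Notum*. *Lrp5* was at 2.56, 7.67 and 6.92 CPM in FAK-WT, 20.9, 19.6 and 24.1 CPM in FAK-/- and 48.6, 49.5 and 51.2 CPM in FAK-kd libraries. The lines did not overlap, and FAK-kd was highest, with log2 fold changes of FAK-WT of -1.61 (standard error 0.14, edgeR adjusted p = 6.54e-07) against FAK-/- and -2.83 (standard error 0.14, edgeR adjusted p = 1.64e-09) against FAK-kd cells. Lowered genes thus stood on both sides of the pathway, as ligands and receptors that pass the signal on and as *Sfrp1* and *Notum*, which limit it. The median log2 fold change of the list was -0.53 against FAK-/- and -0.55 against FAK-kd cells, beside 0.00 over all identifiers.

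**Figure D5:**
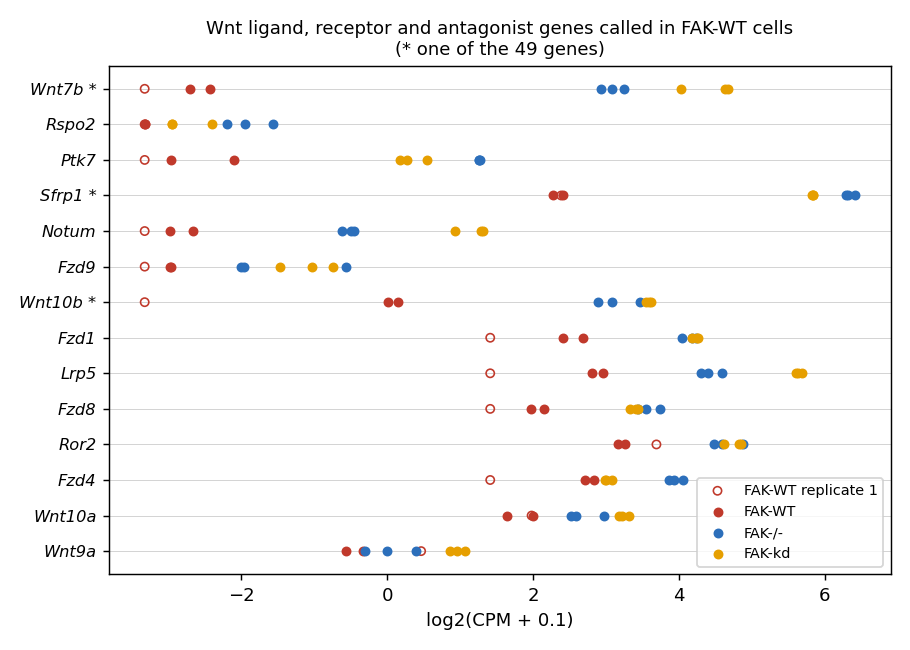
Expression in each library, as log2(CPM + 0.1), of the Wnt ligand, receptor and antagonist genes that were lower at least 2-fold in FAK-WT cells against FAK-/- or FAK-kd cells (edgeR adjusted p of 0.05 or below). Colours are those of the plot of values by library, with FAK-WT replicate 1 open, and stars mark the 3 of the 49 genes; the FAK-WT points lie lowest in nearly all genes, and 10 of the genes passed against both lines.

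Of 37 actin and contractile genes, 7 were lower in FAK-WT cells against both lines and 1, *Des*, was higher. *Acta2*, *Synpo2* and *Fhl1* are among the 7 by choice. Of the 34 list genes outside the choice, 4 were lower. They were the LIM protein gene *Csrp1*, the formin *Fhod3*, the Z-disc gene *Ldb3* and the myosin light chain gene *Myl9*. The list's median log2 fold change was -0.47 against FAK-/- and -0.57 against FAK-kd cells. Of 53 matrix genes, 11 were lower and 2, *Smoc1* and *Tnc*, were higher. *Col12a1*, *Lama4*, *Smoc2* and *Tgfbi* are among the 11 by choice, and 7 of the 49 matrix genes outside the choice were lower. The paralogues *Smoc1* and *Smoc2* thus moved in opposite directions, with *Smoc1* at a mean of 15.2 CPM in FAK-WT replicates 2 and 3, 1.55 CPM in FAK-/- and 0.196 CPM in FAK-kd cells. Of 47 genes of TGF-beta and BMP signaling, 7 were lower and 0 higher by edgeR, 3 (*Inhba* and *Tgfbr2* among them) were higher at an unadjusted p under 0.05 in both contrasts, and DESeq2 called 0 higher. *Nbl1* and *Pmepa1* are among these 7 by choice, and 5 of the other 45 genes of that list were lower. The medians of the matrix list were -0.07 and -0.12, and those of the TGF-beta and BMP list -0.24 and -0.19. All list medians include the genes that were chosen.

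The remaining lists had fewer genes in both contrasts, and *Itgb3*, *Cx3cl1*, *Ctsz* and *Igfbp3* are counted in them by choice. Of 25 integrin genes, *Itgb3* and the collagen receptor subunit *Itga2* were lower and *Itga10* was higher. Of 34 chemokines and receptors, 3 were lower (*Cx3cl1*, *Ccl17* and *Cxcr4*) and 5 were higher (*Ccl2*, *Ccl5*, *Ccl7*, *Ccl9* and *Cxcl10*), so that *Cx3cl1* ran against most chemokines called. In that list 12 genes had at most 3 counts in each library, and 2 reached 5 CPM in both the FAK-/- and the FAK-kd mean. Of 35 lysosomal hydrolases, 3 were lower, *Ctsz* and *Ctsh* among them, and the list medians were 0.00 against FAK-/- and -0.15 against FAK-kd cells. Of 14 insulin-like growth factor binding genes, *Igfbp3* and the protease *Htra1* were lower. Of 16 PDGF and VEGF genes, *Pdgfra* and *Pdgfrb* were lower and *Pdgfc* and *Nrp1* higher, of 20 keratins 3 were lower and 1 higher, and of 48 guidance genes 5 were lower and 2 higher.

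The promoters of the 49 genes were searched for short motifs in the 250 bases before the start site, taken from RefSeq (GRCm38.p6). A promoter was matched for 34 of the genes, with 44 promoters in all. The remaining 15 included *Bhlhe22*, *C1qtnf1*, *Cd248*, *Col12a1*, *Epop*, *Itgb3*, *Lama4*, *Pkp1*, *Pmepa1*, *Sfrp1*, *Smoc2*, *Wnt7b* and *Xylt1*. Both strands were searched. The CArG box, to which serum response factor binds, was searched only as CCWWWWWWGG, where W is A or T. It was found for 3 of the 34 genes (8.82%), *Fhl1*, *Rap1gap2* and *Asgr1*. This compares with 1.36% of the 7405 genes at this level and 1.62% of all 27025 genes with a promoter. In all 3 genes the box lies before a start site inside the annotated span of the gene. The compared shares were not split by this. The AP-1 motif TGANTCA was found for 3 genes (8.82%), *Trim44*, *Adra1b* and *Asgr1*, against 4.81% and 7.82%. The GC box GGGCGG was found for 22 genes (64.7%) against 68.3% and 35.4%, and the ETS motif CCGGAA for 7 (20.6%) against 28.8% and 13.6%. The CRE core TGACG was found for 11 (32.4%) against 33.1% and 19.8%, the SMAD motif GTCTG for 12 (35.3%) against 44.5% and 45.8%, and the TEAD motif CATTCC for 3 (8.82%) against 11.9% and 14.4%. The E-box CACGTG was found for 2 (5.88%) against 10.6% and 6.86%, and the TATA box TATAAA for 5 (14.7%) against 7.04% and 14.3%. These are matches of letters, given as a description, and no binding was measured here. The median GC content of the promoters was 62.0% for the genes and 60.8% for the genes at this level.

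The windows below show the gene with the largest ratios (*Ctsz*) and the genes with the CArG box or the AP-1 motif whose windows lie outside annotated exons. Each is printed 5′ to 3′ on the strand of its gene, with the motif in capitals. The *Ctsz* window lies at chr2:174439040-174439289 on the minus strand and holds overlapping GC boxes. The *Fhl1* window lies at chrX:56779533-56779682 on the plus strand, before a start site inside the annotated span of the gene, with its CArG box at -102 to -93 from the start site. The *Rap1gap2* window lies at chr11:74559028-74559277 on the minus strand, also before an internal start site, with its CArG box at -171 to -162. The *Trim44* window lies at chr2:102400901-102401150 on the minus strand, again before an internal start site, with its AP-1 motif at -187 to -181. The *Adra1b* window lies at chr11:43901238-43901487 on the minus strand, with its AP-1 motif at -198 to -192.
Ctsz: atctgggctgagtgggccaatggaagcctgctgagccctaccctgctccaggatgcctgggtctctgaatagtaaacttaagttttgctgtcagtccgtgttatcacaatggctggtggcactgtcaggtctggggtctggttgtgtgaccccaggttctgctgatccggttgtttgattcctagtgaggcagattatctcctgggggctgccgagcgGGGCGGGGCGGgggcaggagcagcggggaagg
Fhl1: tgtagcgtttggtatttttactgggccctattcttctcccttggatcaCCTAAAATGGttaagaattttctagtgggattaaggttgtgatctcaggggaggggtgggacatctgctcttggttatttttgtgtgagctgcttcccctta
Rap1gap2: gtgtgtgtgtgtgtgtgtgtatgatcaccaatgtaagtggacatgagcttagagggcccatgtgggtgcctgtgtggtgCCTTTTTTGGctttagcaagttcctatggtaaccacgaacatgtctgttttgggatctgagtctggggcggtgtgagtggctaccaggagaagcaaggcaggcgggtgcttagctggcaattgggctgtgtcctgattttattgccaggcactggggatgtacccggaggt
Trim44: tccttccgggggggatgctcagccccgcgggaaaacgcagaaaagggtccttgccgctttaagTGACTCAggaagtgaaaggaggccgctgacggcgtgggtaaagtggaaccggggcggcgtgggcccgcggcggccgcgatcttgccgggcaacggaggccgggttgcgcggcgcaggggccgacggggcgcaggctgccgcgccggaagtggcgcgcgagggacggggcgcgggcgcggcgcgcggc
Adra1b: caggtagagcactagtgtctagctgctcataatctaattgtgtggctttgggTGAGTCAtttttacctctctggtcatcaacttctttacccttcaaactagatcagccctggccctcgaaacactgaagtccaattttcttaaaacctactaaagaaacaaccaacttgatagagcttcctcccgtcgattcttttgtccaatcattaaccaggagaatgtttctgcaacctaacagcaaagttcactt
Of the genes with a CArG box printed here, *Fhl1* was higher in FAK-kd than in FAK-/- cells by adjusted p, and *Rap1gap2* did not pass (FAK-kd over FAK-/- log2 fold change -0.26, standard error 0.18, edgeR adjusted p = 0.453). *Acta2*, a known target of serum response factor, had no CArG box of the form searched in its RefSeq window, most of which lies inside an annotated exon. This says only that these letters are not in this window, and boxes with another base in the core were not searched.

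The 49 genes lay on 19 chromosomes (GRCm38), with 8 on chromosome 11 (16.3% of the genes, against 8.40% of the identifiers at this level) and 6 on chromosome 4 (12.2% against 6.37%). The closest pair was *Xylt1* and *Arl6ip1* on chromosome 7, 445311 bases apart, followed by *Golm1* and *Gas1* on chromosome 13, 498594 bases apart. Within 250 kb of the genes lay 206 other identifiers at this level, and 3 of them (1.46%) were lower in FAK-WT cells than in both lines, against 1.76% of all identifiers at this level. These were *Slc16a11*, 154858 bases from *Asgr1*, *Cacnb3*, 126183 bases from *Wnt10b*, and *Csrp1*, 119163 bases from *Pkp1*. *Nelfcd*, which adjoins *Ctsz*, was at means of 60.5 CPM in FAK-WT, 73.3 CPM in FAK-/- and 63.2 CPM in FAK-kd cells. *Smg1* and *Rps15a*, 1646 and 2703 bases from *Arl6ip1*, were at 214 and 679 CPM in FAK-WT, 190 and 703 CPM in FAK-/- and 173 and 600 CPM in FAK-kd cells. *Stambpl1*, 757 bases from *Acta2*, was higher in FAK-WT cells, at 23.9 CPM against 7.77 CPM in FAK-/- and 13.4 CPM in FAK-kd cells. Most neighbours at this level were therefore not lower in FAK-WT cells.

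Counts of a few of the genes are shared with others. Of the 49 genes, 8 shared over 5% of their 31-base words with another gene, and the median share was 0.130%. Besides *Tubb2a* these included *Golm1* with 28.5%, mostly with the overlapping gene *Naa35*, *C1qtnf1* with 20.8%, *Gas1* with 18.2% and *Gnpda2* with 14.2%, mostly with *Guf1*. *Naa35* was at 39.8 to 49.5 CPM in all 9 libraries and *Guf1* at 10.7 to 16.1 CPM. The library kit does not keep the strand, so reads of overlapping genes cannot be told apart by strand.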

How the data were processed

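RNA-seq libraries of 3 mouse SCC cell lines, with 3 biological replicates each, were grouped by their sample labels. The authors pseudoaligned the reads with kallisto (version 0.43.1 per the submitters' processing notes, which also name GRCm38 and mm10) and used tximport to sum transcripts into genes. Expected counts (kallisto's estimated counts) were deposited by the authors as whole numbers that had not been scaled to library size. Genes without counts had been removed by the authors, and tximport's transcript lengths were not used here. The strand setting of the counting is not given in the sources used here.

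All counts were fitted with edgeR 4.0.16 in R 4.3.3 (TMM, estimateDisp, glmQLFit and glmQLFTest) in 1 model of all 9 libraries with the cell line as its factor and without a filter on low counts, after a test on simulated data. All 49 genes passed filterByExpr, p-values were adjusted over 19044 identifiers, and a gene was called where this p was at most 0.05 and its level differed at least 2-fold. Symbols were found for 18856 identifiers, positions come from the GENCODE annotation of mm10, and shared sequence was counted over 31-base words of its transcripts.

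The 49 genes and the gene lists were chosen with earlier results of these data known, and roles were assigned after the genes were seen. Values are given for genes in a list, for those called between FAK-kd and FAK-/- cells, for the 10 with the largest smaller ratio, for the 3 on each side of the 4-fold limit and for those with at most 3 counts in both FAK-WT libraries used. Other genes with values (such as *Artn*, *Vgll3*, *Gas1*, neighbours and genes with shared sequence) were chosen after their values were seen. A few genes, 2 of the 49 among them, are counted but not reported here by name. Alternatives were DESeq2 1.42.0, other scalings, filterByExpr, a replicate block, fits of 2 lines only, glmTreat, other limits of the choice and leaving out each library.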

Additional observations from a re-analysis of the deposited data

How the results depend on the processing

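The 5 genes higher and 3 lower in FAK-kd than in FAK-/- cells numbered 5 and 3 with DESeq2, with DESeq2's size factors, with library size, with filterByExpr and with only those lines in the fit. With glmTreat against a 2-fold minimum they numbered 3 and 1, without *Wnt7b*, *Ripk3* and *Igsf9*, and by adjusted p alone 17 and 8. Leaving out each library in turn gave 4 to 6 higher and 3 to 3 lower genes, where *Ripk3* (0.98) was lost without FAK-/- replicate 2 and *Artn* (1.01) gained without FAK-/- replicate 3. The 49 genes stayed at 49 to 49 lower in FAK-WT cells in both contrasts with each library left out, and at 49 to 49 for the order of FAK-WT replicate 1. The choice itself gave 75 genes at 3-fold, 31 at 6-fold, 88 at 1 CPM and 25 at 10 CPM, and 48 to 53 with each library left out. With FAK-WT replicate 1 included, 44 of the 49 were kept, and with 1 CPM added to the means in place of 0.1 CPM, 41 were kept. The Wnt, actin, matrix and TGF-beta counts, alternatives chosen after seeing the data, ran from 9 to 10, 6 to 7, 10 to 11 and 5 to 7 with each library left out.

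With the replicate number as a block the counts of genes higher and lower in FAK-kd than in FAK-/- cells were 5 and 3, and the block moved no count of the 49 genes past 2-fold. The TGF-beta count was 6 with it, against 7 without. Deviations of libraries with the same number in different lines had a mean correlation across genes of -0.00768 (9 pairs), against 0.00353 (18 pairs) for different numbers. With 3 libraries per line and a shallow FAK-WT replicate 1, these values cannot show whether libraries of the same number shared a batch. The labels give only a replicate number, and the pairing was not used.

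Each form of FAK was 1 line. FAK-WT replicate 1 shows a gene only from 3.85 CPM, so its 0 counts limit levels loosely. Of the values of single genes under alternatives, 395 kept their direction and side of the threshold and 5 no longer passed, 4 of them with glmTreat.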
